A study of Mus musculus with 52 samples.

Results

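T (Brachyury), Mixl1, Evx1, Eomes, Gsc and Mesp1 are transcription factor genes of the primitive streak, the posterior strip of the mouse epiblast from which mesoderm and definitive endoderm leave at gastrulation. They were taken by symbol, and all 6 were found once among the 55291 gene rows of a bulk poly(A) RNA-seq count table of 52 libraries. The libraries fall under 25 treatment labels, with 2 libraries per group and 4 for untreated extended pluripotent stem cells (EPSCs), and all carry the genotype label WT. The study followed a stem cell model of the mouse embryo from totipotent-like cells to later aggregates, and removed or added single agents at several steps.

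Every EPSC-derived library came from 1 line, mc6-1/Mu-mClover3-10#, and the embryonic stem cells (mESCs) came from 1 other line, 2i-0606-td-ES. EPSCs were kept in LCDM medium. They were given totipotency medium for 2 days (S1), or CHIR-99021 for 2 days, alone or with Elvitegravir, PD0325901 or CD1530; no source used here gives the base medium of the CHIR-99021 groups. Other EPSCs were held in totipotency medium over 25 passages (P25) or 38 passages (P38). The mESCs were sampled in 2i/L medium and after 2 days of totipotency medium (mESC-S1). Aggregates of S1 cells spent 1 day in 4C-64C medium (S2) and a further day in it (S3), each also with 8Br-cAMP, Birabresib, CHIR-99021 or CD1530 left out; which S1 cells formed the aggregates is not stated. Nor do the labels say whether the S3 omission groups spent their first day in full medium. S5 aggregates followed from S4, which is not analysed here, after 3 days in peri-implantation medium on Aggrewell plates, with all agents or without Activin A, BMP4, FGF4 or XAV 939. The groups differ from each other in medium and stage only as far as the labels say, and each group stands on 1 cell line. The labels do not tie the 2 libraries of a group to separate cultures, so the p-values measure the spread between these libraries, which may be technical.

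In the embryo, Wnt3 signalling through beta-catenin and Nodal signalling, with BMP4 from the extraembryonic ectoderm, start the streak, and Lefty1, Cer1 and Dkk1 from the anterior visceral endoderm limit it to the posterior side. T, Mixl1 and Eomes mark the early streak, Evx1 marks its posterior part, Gsc marks its anterior part, and Mesp1 marks mesoderm cells as they leave. Eomes is also a gene of trophoblast and visceral endoderm, and Gsc is also a gene of anterior visceral endoderm. CHIR-99021 inhibits GSK3 and so raises beta-catenin, XAV 939 inhibits tankyrase and so lowers it, CD1530 activates the retinoic acid receptor gamma, Birabresib inhibits BET bromodomain proteins, 8Br-cAMP is a stable cAMP analogue and PD0325901 inhibits MEK.

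On the mm10 build, T lies on chr17:8434423-8442496 (plus strand), Mixl1 on chr1:180693043-180697034 (minus), Evx1 on chr6:52313498-52318378 (plus), Eomes on chr9:118478212-118486132 (plus), Gsc on chr12:104471209-104473330 (minus) and Mesp1 on chr7:79792241-79793788 (minus), all protein-coding. The antisense gene Evx1os overlaps the start of Evx1, and 2.54% of the exonic bases of Evx1 lie in exons of Evx1os; no source used here gives the strand setting, so reads there cannot be told apart. Gm33460 overlaps 2.84% of the exonic bases of Eomes. The counts cover whole genes, so nothing below separates exons, introns or UTRs.

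The 250 bases before the RefSeq transcription start (GRCm38.p6) are shown for T and Evx1, which lost most of their level together when CHIR-99021 was left out, and for Eomes, which did not pass the test there. Capitals mark the TCF/LEF core TCAAAG, the motif of the transcription factors that beta-catenin binds.
T promoter, chr17:8434173-8434422, plus strand: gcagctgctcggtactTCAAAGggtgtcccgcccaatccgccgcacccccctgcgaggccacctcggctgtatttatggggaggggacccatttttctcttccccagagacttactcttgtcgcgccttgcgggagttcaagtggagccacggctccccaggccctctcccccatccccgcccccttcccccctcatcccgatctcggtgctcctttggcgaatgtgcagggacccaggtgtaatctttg
Evx1 promoter, chr6:52313248-52313497, plus strand: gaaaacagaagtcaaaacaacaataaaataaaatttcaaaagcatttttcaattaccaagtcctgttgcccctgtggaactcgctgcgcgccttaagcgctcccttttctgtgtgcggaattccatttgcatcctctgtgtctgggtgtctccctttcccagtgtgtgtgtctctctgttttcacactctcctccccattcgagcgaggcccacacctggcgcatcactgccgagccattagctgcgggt
Eomes promoter, chr9:118477939-118478188, plus strand: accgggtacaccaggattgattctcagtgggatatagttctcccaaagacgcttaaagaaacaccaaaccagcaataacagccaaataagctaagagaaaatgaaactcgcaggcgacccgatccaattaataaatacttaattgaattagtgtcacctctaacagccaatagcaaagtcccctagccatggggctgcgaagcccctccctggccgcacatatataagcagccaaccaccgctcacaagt

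The search read both strands of 5 of the 6 genes, Mixl1 having no entry in the table used, and its motifs were chosen with the sequences in view. TCAAAG was found in T, 234 bases before the start, and in Mesp1, 72 bases and, on the other strand, 31 bases before it. GENCODE M21 places the start of Mesp1 further upstream, so both Mesp1 matches lie inside its annotated gene. The motif occurs in 13.8% of all 32851 promoter windows of the same length. The T-box half-site TCACACC (3.33% of windows) and the nuclear receptor half-site AGGTCA (14.0% of windows) were in none of the 5. A match describes these letters only.

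Levels are counts-per-million (CPM) values on library sizes scaled by the trimmed mean of M-values. Changes are log2 fold changes with the standard error (SE) from edgeR's quasi-likelihood test, with p-values adjusted by Benjamini-Hochberg over 25056 tested genes. A gene is said to have risen or fallen where it differed by 1 or more on the log2 scale with an adjusted p below 0.05. All 6 genes passed the filter on low counts. In bulk libraries, fewer cells that express a gene and less RNA per cell cannot be told apart.

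Total counts per library ran from 16643188 to 108304781. In 46 libraries 66.8% to 80.5% of the counts between 1 and 10 were even, as when both reads of a pair are counted apart, and in the 6 libraries of EPSC replicates 3 and 4, P25 and P38 the share was 40.7% to 42.0%. Small counts in the 46 libraries therefore stand for fewer fragments than they show. EPSC replicates 1 and 2 were titled with the 2-day treatments (first set, 12 libraries) and replicates 3 and 4 with the rest (second set, 40 libraries), and each comparison used the EPSCs of its own set. Inside the second set, mESCs against EPSCs, S5 against EPSCs and S2 against P25 each set libraries of 1 counting pattern against libraries of the other. In those comparisons the counting pattern and the group cannot be told apart. All 12 first-set libraries list Sox2 at 0, while the second set has it at 124 to 530 CPM. Sox1 and Tubb3 also had no count in any first-set group, and both had counts in every second-set group. The cause was not tested. Eomes also stood apart between the EPSCs of the sets, at a mean of 7.43 and 22.3 CPM, so an order of levels across the sets is a description only. Pou5f1 and Nanog, the epiblast markers, were detected in all 52 libraries. Feeder fibroblast markers summed to 2200 to 2310 CPM in mESCs and to 738 to 752 CPM in EPSCs of the second set, and their part in the comparison of those cells was not tested.

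Over all groups, Eomes was the gene with the highest mean level per length, 18.9 CPM per kb of exon at S5. Evx1 reached 17.8 CPM per kb and T 15.4 CPM per kb, both in aggregates without CD1530. Mixl1 reached 7.74, Gsc 6.70 and Mesp1 0.360 CPM per kb. Eomes was above 1 CPM in all 52 libraries, while T was under 1 CPM in 14, Mixl1 in 20, Evx1 in 30, Gsc in 37 and Mesp1 in all 52. Mesp1 had 166 counts in all and none in 25 libraries; the floor used here, 3 fragments, equals 0.0485 to 0.232 CPM depending on the library, with 2 counts taken as 1 fragment where mates seem counted apart.

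**Figure D1:**
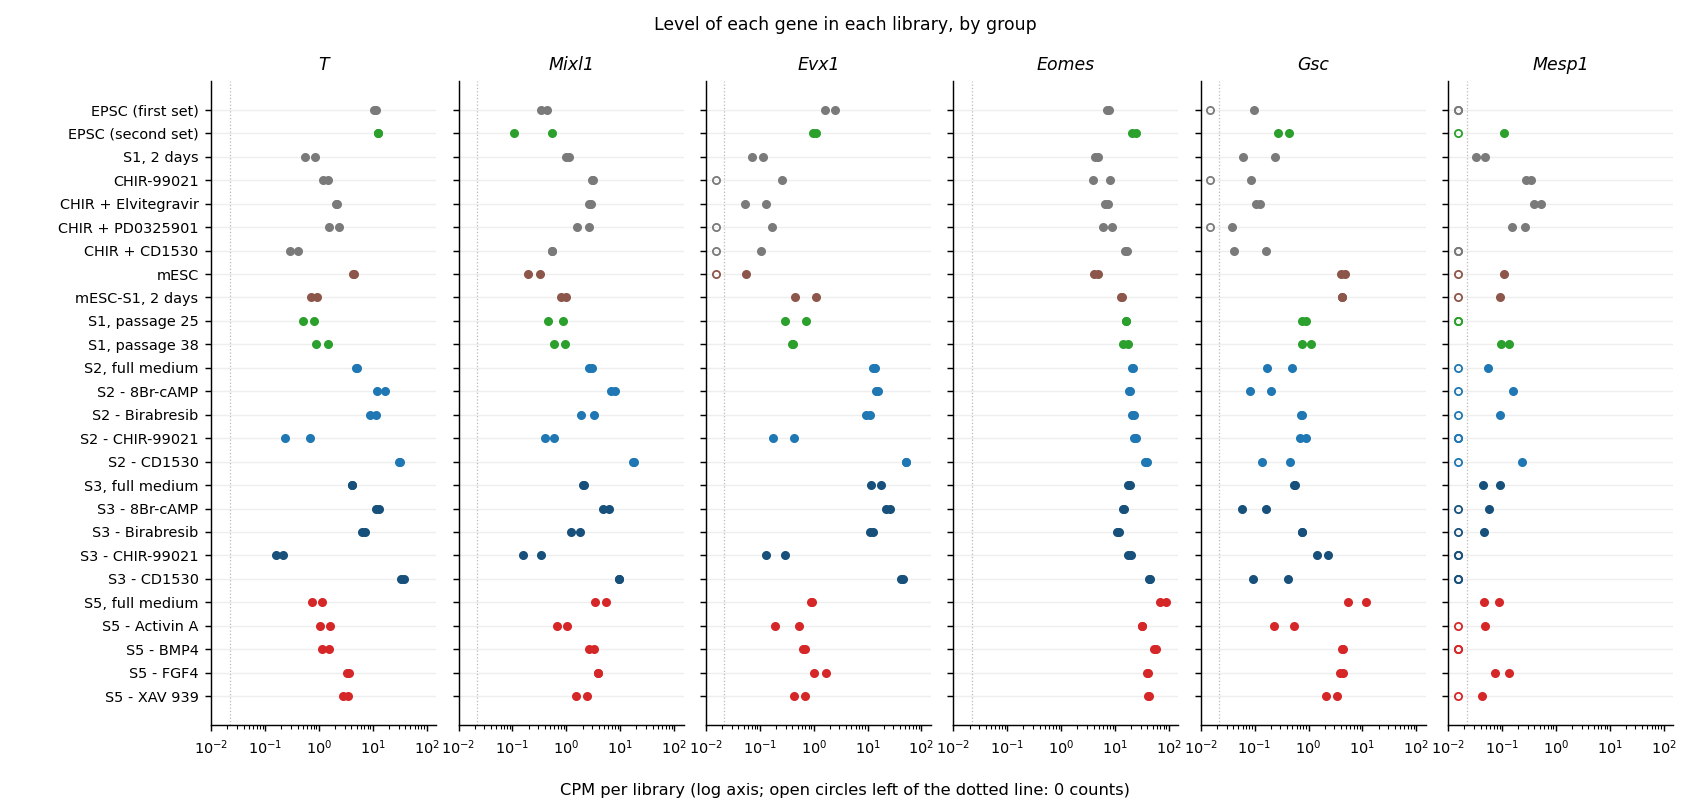
CPM of each gene in each library on a log axis, 1 panel per gene and 1 row per group, with open circles for libraries without a count; colours mark the EPSC treatments of the first set, the mESCs, the long-term S1 cells with their EPSCs, S2, S3 and S5. T, Mixl1 and Evx1 are highest in S2 and S3 without CD1530, Eomes and Gsc are highest at S5, and Mesp1 stays under 1 CPM.

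T was highest at S3 without CD1530, at 34.0 and 37.2 CPM. S2 without CD1530 followed at 30.0 and 32.1 CPM, and these groups stood apart from each other and from all others. S2 without 8Br-cAMP, both EPSC groups, S3 without 8Br-cAMP and S2 without Birabresib came next, with means from 10.1 to 14.6 CPM, and neighbours in this stretch overlapped. T was lowest at S3 without CHIR-99021, at 0.158 and 0.212 CPM. Of the 25 pairs of neighbouring groups in the order, 15 overlapped for T, 20 for Mixl1, 19 for Evx1, 14 for Eomes, 18 for Gsc and 22 for Mesp1.

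Mixl1 was highest at S2 without CD1530 (17.6 and 17.9 CPM), then at S3 without CD1530 (9.70 and 9.64 CPM) and S2 without 8Br-cAMP (6.79 and 8.13 CPM), each group apart from the next. Evx1 had the same leading pair, S2 without CD1530 at 51.3 and 51.2 CPM and S3 without CD1530 at 41.0 and 45.5 CPM. The 8 S2 and S3 groups that contained CHIR-99021 held the first 8 places for Evx1, with means of 10.4 CPM or more, and the next group was EPSCs of the first set at 2.44 and 1.65 CPM. Gsc was above 2 CPM in every library of mESCs, mESC-S1 and the S5 groups other than S5 without Activin A, and above it elsewhere in 1 library alone, of S3 without CHIR-99021.

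Over the 27 comparisons the labels imply, the 6 genes give 162 pairs of gene and comparison, of which 63 passed the test (38.9%, against 10.4% of all gene and comparison pairs). T rose in 9 and fell in 10 comparisons, Mixl1 rose in 10 and fell in 6, and Evx1 rose in 5 and fell in 6. Eomes rose in 6 and fell in 2, Gsc rose in 4 and fell in 3, and Mesp1 rose in 1 and fell in 1. Many of these comparisons share their reference libraries, so the counts are not independent.

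The 2-day treatments set EPSCs given totipotency medium or single agents against EPSCs kept in LCDM medium. With CHIR-99021 alone, T and Evx1 fell while Mixl1 and Mesp1 rose, so the streak genes moved in both directions. The base medium of this group is not given, so CHIR-99021 and a change of medium cannot be told apart. Nor are the agents of LCDM medium listed here, so this comparison cannot be read as cells with against cells without CHIR-99021. T, the factor that keeps posterior mesoderm progenitors going, was at 11.5 and 10.5 CPM in EPSCs and at 1.47 and 1.20 CPM with CHIR-99021. Both treated libraries lay far below both controls, and the log2 fold change was −3.02 (SE 0.259, adjusted p = 3.9e-12, edgeR quasi-likelihood test). Mixl1, a homeobox factor of early mesendoderm, went the other way, from 0.444 and 0.345 CPM to 2.97 and 3.09 CPM, without overlap (2.92, SE 0.37, adjusted p = 3.3e-08).

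Evx1, a homeobox factor of the posterior streak, was at 2.44 and 1.65 CPM in EPSCs and at 0.260 and 0 CPM with CHIR-99021. It fell by 3.68 on the log2 scale (SE 0.545); without CHIR-99021 replicate 1 the change was −9.44, from a single library without counts, and without replicate 2 it was −2.95. Mesp1, a basic helix-loop-helix factor of nascent mesoderm, had no count in either EPSC library and 16 and 8 counts (0.347 and 0.281 CPM) with CHIR-99021. Its pooled level with CHIR-99021 was 4.59 times the floor of 3 fragments over the EPSC group (edgeR adjusted p = 0.020). That ratio leaves out the counting error of the CHIR-99021 libraries and is not a lower limit. The call was lost without EPSC replicate 1 and without replicate 2. Eomes was at 7.19 and 7.66 CPM in EPSCs and at 7.96 and 3.87 CPM with CHIR-99021, whose libraries lay on both sides of the controls (−0.29, SE 0.184, adjusted p = 0.24). With the 4 EPSC libraries of both sets pooled, Eomes gave −1.30 and passed; it was at 20.6 and 24.1 CPM in EPSCs of the second set. Of all tested genes, 18.7% passed the test in this comparison.

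CD1530 on top of CHIR-99021 lowered T and Mixl1 and raised Eomes. T was at 0.403 and 0.288 CPM with both agents (−1.98, SE 0.356, adjusted p = 1.9e-05), and Mixl1 was at 0.537 and 0.534 CPM (−2.49, SE 0.355, adjusted p = 3.6e-07). Both genes lay below both libraries with CHIR-99021 alone. Mesp1 had no count in either library with CD1530 (edgeR adjusted p = 0.020). Its pooled level in CHIR-99021 alone was 4.61 times the floor over the CD1530 group, again without the counting error of the CHIR-99021 libraries. The call was lost on leaving out either CD1530 library. Eomes, the T-box factor needed for trophoblast and for definitive endoderm, rose to 15.2 and 16.4 CPM (1.38, SE 0.18, adjusted p = 6.1e-08). Eomes gave 0.99 without CHIR-99021 replicate 2, under the fold threshold, and 2.03 without replicate 1. Beside this, the 14 visceral endoderm markers summed to 2690 to 2710 CPM with CD1530 and to 289 to 316 CPM without it, with 11 of 14 risen, and the 16 trophoblast markers summed to 815 to 820 CPM against 173 to 202 CPM. The 12 epiblast markers summed to 711 to 714 CPM with CD1530 and to 1140 to 1460 CPM without it. Of these 12, 9 fell and none rose. The part of these lists in the levels of T, Mixl1 and Eomes was not tested. In this comparison 16.7% of tested genes passed.

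Elvitegravir and PD0325901 on top of CHIR-99021 changed none of the 6 genes by edgeR. At an unadjusted p below 0.05, 1 gene differed in each, which was T, at 2.05 and 2.19 CPM with Elvitegravir (0.65, SE 0.282, adjusted p = 0.20) and at 2.33 and 1.55 CPM with PD0325901 (0.58, SE 0.272, adjusted p = 0.20); DESeq2 called none. Elvitegravir passed the test for 0.00798% of all genes and PD0325901 for 4.51%. Mesp1 had its highest level in the series with CHIR-99021 and Elvitegravir, 0.384 and 0.534 CPM, from 12 and 20 counts.

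In the whole totipotency medium (S1), Evx1 was at 0.113 and 0.0724 CPM and fell by 4.37 from EPSCs (SE 0.475, adjusted p = 5.4e-10, edgeR). Mixl1 was at 0.970 and 1.12 CPM and rose by 1.39 on the log2 scale (SE 0.374, adjusted p = 0.0020). T fell too, by 3.96 (SE 0.255), to 0.833 and 0.555 CPM. All 3 genes had S1 and EPSC libraries apart, and 27.8% of all tested genes passed. Beside this, the 12 epiblast markers summed to 362 to 371 CPM in S1 and 1990 to 2040 CPM in EPSCs. Of these 12, 8 fell and 1 rose. The 16 trophoblast markers summed to 1260 to 1610 CPM in S1 and 674 to 691 CPM in EPSCs, with 10 risen and 2 fallen. The part of either list in these levels was not tested. Against CHIR-99021 alone, where 19.5% of genes passed, only Mixl1 of the 6 passed in S1 (−1.53, SE 0.308, adjusted p = 8.4e-05). T was lower in S1 than with CHIR-99021 by 0.94 on the log2 scale (SE 0.283, adjusted p = 0.0072), under the fold threshold. Mesp1 was at 0.0323 and 0.0483 CPM in S1, against 0.347 and 0.281 CPM with CHIR-99021 (edgeR adjusted p = 0.13).

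**Figure D2:**
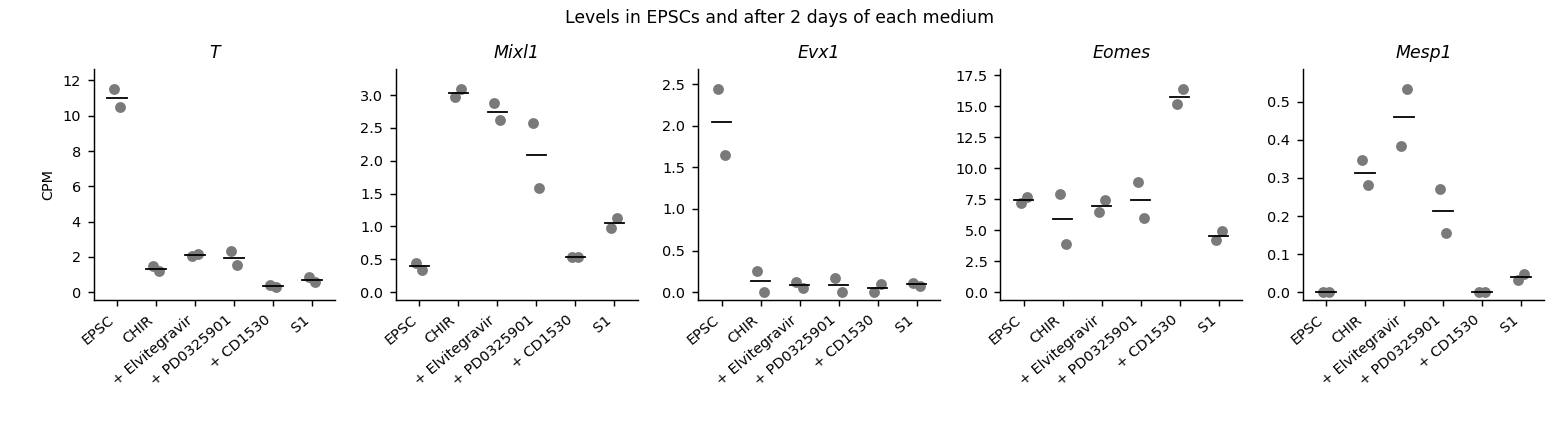
CPM of 5 genes in EPSCs of the first set and after 2 days with CHIR-99021, CHIR-99021 with a second agent, or the whole totipotency medium (S1); points are the 2 libraries of a group and bars their mean. T and Evx1 are high in EPSCs alone, Mixl1 and Mesp1 are high with CHIR-99021 and low again once CD1530 is added, and Eomes is highest with CD1530.

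Of 24 streak signals and their regulators, 5 rose and 5 fell with CHIR-99021. Lefty1, a Nodal antagonist, rose from 1.92 ± 0.42 to 78.9 ± 28.2 CPM (SD, n = 2; log2 fold change 5.35). Lefty2, another Nodal antagonist, rose from 6.06 ± 1.47 to 49.1 ± 0.804 CPM (3.01), and Bmp4, the streak-inducing ligand, fell from 61.4 ± 3.35 to 2.27 ± 0.376 CPM (−4.74). With CD1530 added, 3 of the 24 rose and 8 fell, among them Tdgf1, the Nodal coreceptor, from 501 ± 65.5 to 6.58 ± 1.22 CPM (−6.26), and Lef1, a nuclear partner of beta-catenin, from 66.2 ± 8.2 to 1.20 ± 0.333 CPM (−5.75). Among 33 tested genes of the list of other streak and early mesoderm genes, 11 rose and 7 fell with CHIR-99021. Sp5, a Wnt target of the streak, fell from 46.6 ± 2.87 to 3.12 ± 1.23 CPM (−3.85).

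The 2 kinds of starting cell differed in 4 of the 6 genes, and 19.6% of all tested genes passed between mESCs and EPSCs. T was at 4.36 and 4.52 CPM in mESCs and at 12.3 and 12.7 CPM in EPSCs of the second set (−1.49, SE 0.236, adjusted p = 2.4e-06, edgeR). Gsc, a homeobox repressor of the anterior streak and organizer, was at 4.69 and 3.97 CPM in mESCs and at 0.27 and 0.428 CPM in EPSCs (3.62, SE 0.635, adjusted p = 1.3e-05). Eomes was at 4.78 and 4.05 CPM against 20.6 and 24.1 CPM (−2.34, SE 0.192, adjusted p = 1.3e-12). No library of one kind overlapped the other in these genes. Evx1 had 2 counts in both mESC libraries together and 39 in the EPSCs, a ratio of 35.2 with a 95% counting interval of 5.96 to 1430, which takes 2 mESC counts as 1 fragment and covers counting error only. Its log2 fold change of −5.01 became −4.19 without mESC replicate 1 and −8.47 without replicate 2.

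Totipotency medium moved T down and Mixl1 up in mESCs too, and in addition raised Evx1 and Eomes there. T went from 4.36 and 4.52 CPM to 0.922 and 0.698 CPM (−2.44, SE 0.276, adjusted p = 2.5e-09, edgeR), and Mixl1 from 0.197 and 0.326 CPM to 0.982 and 0.791 CPM (1.73, SE 0.447, adjusted p = 0.0017). Eomes went from 4.78 and 4.05 CPM to 13.6 and 12.8 CPM (1.58, SE 0.188, adjusted p = 6.9e-09). Evx1 went from 2 counts to 69 counts, a ratio of 25.0 (95% counting interval over fragments 4.20 to 1020), with 0.441 and 1.09 CPM in the treated libraries. The log2 fold change of Evx1, 4.53, became 3.71 or 8.00 without mESC replicate 1 or 2 and 3.78 without mESC-S1 replicate 2. Gsc was at 4.21 and 4.14 CPM after treatment, within the range before it. Of all genes, 22.5% passed in this comparison. Beside Eomes, 8 of 16 trophoblast markers rose and 3 fell (sum 1080 to 1100 CPM before, 718 to 719 CPM after), and 6 of 14 visceral endoderm markers rose and 2 fell (92.1 to 106 CPM before, 122 to 145 CPM after). Feeder fibroblast markers summed to 1040 to 1050 CPM after treatment, below the mESCs. Their part in these values was not tested.

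The difference between the mESC and EPSC responses was tested as 1 contrast of 4 groups, in which 18.7% of all genes passed. It was 1.52 for T (SE 0.375, adjusted p = 0.0014, edgeR), 2.29 for Eomes (SE 0.259, adjusted p = 4e-09) and 8.91 for Evx1 (SE 0.953, adjusted p = 1.2e-09). T fell in both kinds of cell, Eomes rose in mESCs and was at 4.22 and 4.90 CPM in S1 (−0.71, adjusted p = 0.0010, under the fold threshold), and Evx1 rose in mESCs and fell in EPSCs. Without mESC replicate 1 or 2 the value for Evx1 was 8.09 or 12.37, and without mESC-S1 replicate 2 it was 8.15. Mixl1, Gsc and Mesp1 did not pass. The 2 responses were measured in different sets, with EPSCs of the first set and mESCs of the second.

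After 25 passages in totipotency medium, T was at 0.512 and 0.826 CPM against 12.3 and 12.7 CPM in EPSCs. It fell by 4.24 on the log2 scale (SE 0.324, adjusted p = 1.6e-13, edgeR) and was the only one of the 6 to pass, where 18.7% of all genes passed. Eomes was at 15.8 and 16.1 CPM at P25 and 14.3 and 17.2 CPM at P38, and Gsc at 0.768 and 0.885 CPM at P25 and 1.11 and 0.772 CPM at P38. Between P25 and P38 none of the 6 genes passed by edgeR, none had an unadjusted p below 0.05 and DESeq2 called none, while 0.339% of all genes passed. The interval of that difference for T was −0.0134 to 1.61 on the log2 scale (95%).

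Aggregates after 1 day in 4C-64C medium (S2) had more T, Mixl1 and Evx1 than cells at P25, and 16.1% of all genes passed in that comparison. T was at 5.10 and 4.90 CPM at S2 (2.92, SE 0.335, adjusted p = 5.7e-09, edgeR), Mixl1 at 2.61 and 3.00 CPM against 0.461 and 0.885 CPM (2.08, SE 0.398, adjusted p = 6.2e-05), and Evx1 at 13.8 and 12.4 CPM against 0.717 and 0.295 CPM (4.65, SE 0.451, adjusted p = 1.2e-10). The groups did not overlap in any of the 3 genes. Without P25 replicate 1 the value for Evx1 was 5.47. Feeder fibroblast markers summed to 1310 to 1330 CPM at P25 and 262 to 272 CPM at S2, with 7 of 10 fallen, and trophoblast markers to 1570 to 1600 and 882 to 908 CPM, with 11 of 16 fallen and 1 risen; their part was not tested. Sp5 rose beside them from 7.82 ± 0.783 to 91.4 ± 3.03 CPM (SD, n = 2) and Cdx1, a posterior homeobox gene, from 79.1 ± 0.0823 to 546 ± 19.8 CPM, while 9 of 24 streak signals fell and 2 rose. A second day in the medium (S3) changed none of the 6 genes by edgeR, none at an unadjusted p below 0.05 and none by DESeq2, where 5.28% of all genes passed. For T the 95% interval of S3 against S2 was −0.72 to 0.20 on the log2 scale, and for Evx1 it was −0.40 to 0.73.

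The omission groups ask which agent of the 4C-64C medium each gene depended on. Leaving out CHIR-99021 took T, Mixl1 and Evx1 down together on both days while Eomes did not pass the test on either. At S2, Evx1 went from 13.8 and 12.4 CPM to 0.427 and 0.173 CPM (−5.41, SE 0.434, adjusted p = 4.2e-12, edgeR). T went from 5.10 and 4.90 CPM to 0.695 and 0.230 CPM (−3.40, SE 0.309, adjusted p = 9.1e-11), and Mixl1 from 2.61 and 3.00 CPM to 0.588 and 0.403 CPM (−2.49, SE 0.369, adjusted p = 3.2e-06). None of the libraries without CHIR-99021 came near the full medium in these 3 genes. The omission group had 16 and 6 counts of Evx1 and 26 and 8 of T, and without its replicate 1 the values were −6.21 for Evx1 and −4.42 for T. Eomes was at 22.8 and 25.0 CPM without CHIR-99021 and at 20.3 and 21.8 CPM with it, a difference whose 95% interval ran from −0.14 to 0.51. At this step 5.07% of all genes passed, against 3 of the 6.

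At S3 the same omission gave the lowest T of the series, and the lowest mean of Mixl1, whose range overlapped that of mESCs. T was at 0.158 and 0.212 CPM against 4.17 and 4.15 CPM (−4.47, SE 0.36, adjusted p = 2.4e-12, edgeR), Mixl1 at 0.158 and 0.345 CPM against 2.04 and 2.17 CPM (−3.05, SE 0.411), and Evx1 at 0.132 and 0.292 CPM against 17.6 and 11.8 CPM (−6.10, SE 0.453). The omission group had 6 and 8 counts of T, 6 and 13 of Mixl1 and 5 and 11 of Evx1, some of them at or near the floor of 3 fragments. The size of these falls is therefore uncertain. Without replicate 2 of the omission group, Mixl1 gave −3.70 and Evx1 −6.75. Gsc moved the other way, from 0.557 and 0.536 CPM to 2.27 and 1.43 CPM (1.76, SE 0.54, adjusted p = 0.014), and its adjusted p was 0.075, 0.088 and 0.14 without S3 replicate 1, S3 replicate 2 and replicate 1 of the omission group. Eomes was at 17.5 and 19.7 CPM against 19.3 and 17.6 CPM, its libraries overlapping the full medium (95% interval −0.32 to 0.34). The omission passed the test for 9.16% of all genes, and for 4 of the 6. The visceral endoderm markers summed to 569 to 589 CPM without CHIR-99021 and to 171 to 175 CPM with it, and 8 of 14 rose; their part in the level of Gsc was not tested.

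**Figure D3:**
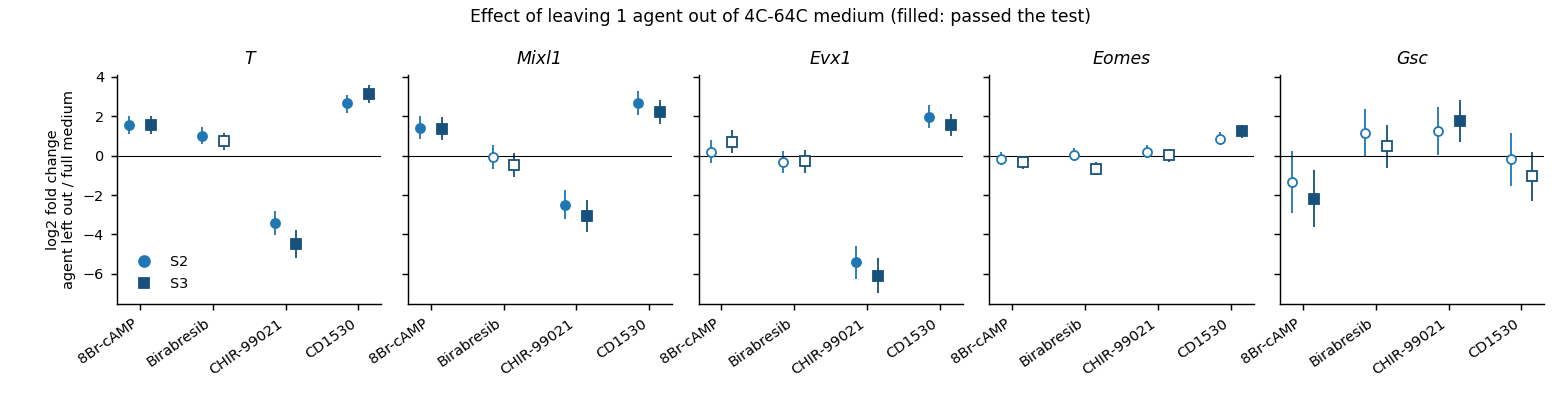
Log2 fold change of 5 genes on leaving 1 agent out of 4C-64C medium, against the full medium of the same day; circles are S2, squares S3, bars 95% intervals and filled symbols changes that passed the test. T, Mixl1 and Evx1 lie far below 0 without CHIR-99021 and above it without CD1530, while Eomes lies within 1 of 0 except at S3 without CD1530.

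Leaving out CD1530 raised the same 3 genes at S2 and, at S3, Eomes as well. At S2, T went to 30.0 and 32.1 CPM (2.64, SE 0.231, adjusted p = 2.8e-10, edgeR), Mixl1 to 17.6 and 17.9 CPM (2.66, SE 0.302, adjusted p = 6.8e-08) and Evx1 to 51.3 and 51.2 CPM (1.97, SE 0.293, adjusted p = 1.1e-05). Each was several times the full medium, with no overlap. Eomes was at 36.7 and 38.8 CPM against 20.3 and 21.8 CPM, above both controls with a change under the fold threshold (0.84, SE 0.167, adjusted p = 0.00072). Gsc was at 0.453 and 0.138 CPM, overlapping the full medium (0.172 and 0.495 CPM). The omission passed for 2.33% of all genes.

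At S3 without CD1530, T went to 34.0 and 37.2 CPM (3.10, SE 0.234, adjusted p = 1.9e-12, edgeR) and Mixl1 to 9.70 and 9.64 CPM (2.20, SE 0.301, adjusted p = 8.5e-07). Evx1 went to 41.0 and 45.5 CPM (1.56, SE 0.288, adjusted p = 0.00010), and Eomes to 42.0 and 43.8 CPM (1.22, SE 0.167, adjusted p = 8.2e-07). All 4 genes were above both libraries of the full medium, and 5.79% of all genes passed. Cyp26a1, the retinoic acid degrading enzyme, fell at S3 from 11.5 ± 1.45 to 1.92 ± 0.081 CPM (SD, n = 2; −2.58). Of the 24 streak signals, 6 rose at S2 and 7 at S3 and none fell; Bmp4 rose from 6.36 ± 0.186 to 50.1 ± 1.04 CPM at S3. Beside this, the epiblast markers summed to 1800 to 1820 CPM at S2 without CD1530 and 1270 to 1310 CPM with it, and to 1760 to 1820 and 1180 to 1260 CPM at S3. Epiblast markers were also higher without CHIR-99021 (1720 to 1940 CPM at S2, 1980 to 2000 CPM at S3), where T, Mixl1 and Evx1 were low. The trophoblast markers summed to 1610 to 1700 CPM at S3 without CD1530 and 1000 to 1050 CPM with it, and 6 of 16 rose and none fell. At S3 without CHIR-99021 they summed to 1780 to 1800 CPM, with 7 of 16 risen and 1 fallen, while Eomes did not pass the test there. The part of epiblast and trophoblast markers in these levels was not tested.

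Leaving out 8Br-cAMP raised T and Mixl1 on both days. At S2, T was at 12.0 and 17.1 CPM (1.55, SE 0.228, adjusted p = 9.2e-06, edgeR) and Mixl1 at 6.79 and 8.13 CPM (1.42, SE 0.298, adjusted p = 0.0016; 0.050 without S2 replicate 1). At S3, T was at 11.4 and 12.8 CPM (1.53, SE 0.228, adjusted p = 2.7e-06) and Mixl1 at 4.76 and 6.11 CPM (1.36, SE 0.301, adjusted p = 0.00079). In both genes and on both days the libraries without 8Br-cAMP lay above the full medium. Evx1 was at 15.7 and 14.4 CPM at S2 (0.20, SE 0.29) and at 22.2 and 25.7 CPM at S3 (0.71, SE 0.286, adjusted p = 0.078). Gsc fell at S3, from 0.557 and 0.536 CPM to 0.163 and 0.0585 CPM (−2.18, SE 0.733, adjusted p = 0.029), on 8 and 2 counts. That call was lost without any 1 of the 4 libraries (adjusted p 0.064 to 0.20, and −3.16 without replicate 1 of the omission group). The omission passed for 1.92% of all genes at S2 and for 6.63% at S3. Lef1 rose beside T and Mixl1 from 16.6 ± 1.1 to 51.2 ± 1.75 CPM at S2 and from 15.7 ± 0.0961 to 85.8 ± 7.05 CPM at S3 (SD, n = 2).

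Leaving out Birabresib raised T at S2, from 5.10 and 4.90 CPM to 8.87 and 11.3 CPM (1.01, SE 0.228, adjusted p = 0.0034, edgeR). This is at the edge of the fold threshold, and without S2 replicate 2 or replicate 2 of the omission group the value was 0.98 or 0.81 (adjusted p 0.051 and 0.068). At S3, T was at 6.37 and 7.27 CPM (0.71, SE 0.228, adjusted p = 0.026) and Eomes at 11.0 and 12.1 CPM against 19.3 and 17.6 CPM (−0.67, SE 0.17, adjusted p = 0.0041), both under the fold threshold. Mixl1 and Evx1 did not pass on either day. Birabresib passed for 2.98% of all genes at S2 and 6.21% at S3. At S3 edgeR called none of the 6, 2 had an unadjusted p below 0.05, and DESeq2 called none.

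Whether an omission acted differently at S3 and S2 was tested as an interaction, a test added after the data were seen. The labels give 1 day of omission on S2 aggregates for S3, and do not say whether those aggregates had spent their first day in full medium. No gene of the 6 passed for any of the 4 agents by edgeR, against 1.9% of all genes for 8Br-cAMP, 0.87% for Birabresib, 2.43% for CHIR-99021 and 0.962% for CD1530. One of the 6, Eomes, had an unadjusted p below 0.05 for Birabresib and 1, Mesp1, for CD1530. For T the difference was −1.06 (95% interval −2.13 to 0.01) for CHIR-99021 and 0.46 (−0.16 to 1.08) for CD1530.

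Among the 33 other streak and early mesoderm genes tested, leaving out CHIR-99021 raised 14 and lowered 4 at S2 and raised 11 and lowered 4 at S3. The genes that fell included Sp5, from 91.4 ± 3.03 to 1.53 ± 0.0414 CPM at S2 and from 116 ± 8.38 to 0.265 ± 0.3 CPM at S3 (SD, n = 2), and Cdx1, from 546 ± 19.8 to 69.1 ± 5.12 CPM at S2. Cdx2, a posterior and trophoblast gene, fell from 22.4 ± 1.18 to 3.99 ± 1.11 CPM at S2. Cyp26a1 rose from 4.33 ± 1.27 to 36.6 ± 1.4 CPM at S2. Of the 24 streak signals, 7 rose and 3 fell at S2 and 8 rose and 3 fell at S3; Lef1 fell from 16.6 ± 1.1 to 1.52 ± 0.194 CPM at S2, and Lefty2 rose from 8.16 ± 1.34 to 88.9 ± 6.15 CPM. Without CD1530, 0 rose and 2 fell of the 33 at S2, and 5 rose and 3 fell at S3. The list of 33 had a median log2 fold change of 0.618 at S2 and 0.394 at S3 without CHIR-99021, and that of the 24 signals was 0.247 and 0.206. Over the 5 genes other than Mesp1, whose counts were too few, the median was −2.49 at S2 and −3.05 at S3 without CHIR-99021 and 1.97 and 1.56 without CD1530, while that of all tested genes was between −0.0394 and 0 in these comparisons.

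Evx1os, the antisense gene at the start of Evx1, was at 1.75 and 1.07 CPM at S2, had no count in either library without CHIR-99021, and was at 9.47 and 9.85 CPM without CD1530. Without 8Br-cAMP, Evx1os rose at S2 to 5.94 and 6.2 CPM (2.11, SE 0.381, adjusted p = 0.00026, edgeR) while Evx1 was at 15.7 and 14.4 CPM and did not pass; whether the 2 changes differ was not tested.

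S5 aggregates, after peri-implantation medium, held the highest Eomes and Gsc of the series and low T and Evx1. Against S3, Eomes went from 19.3 and 17.6 CPM to 67.9 and 89.1 CPM (2.09, SE 0.17, adjusted p = 6.5e-13, edgeR) and Gsc from 0.557 and 0.536 CPM to 5.35 and 11.7 CPM (3.95, SE 0.543, adjusted p = 1.4e-07; 3.29 without S5 replicate 2). Mixl1 went from 2.04 and 2.17 CPM to 3.38 and 5.52 CPM (1.08, SE 0.301, adjusted p = 0.0034), and gave 0.69 (adjusted p = 0.13) without S5 replicate 2. S5 replicate 2 was the higher library in Eomes, Gsc and Mixl1, and both S5 libraries lay above both of S3 in all 3. T went down from 4.17 and 4.15 CPM to 0.751 and 1.16 CPM (−2.12, SE 0.269, adjusted p = 2.7e-08) and Evx1 from 17.6 and 11.8 CPM to 0.906 and 0.935 CPM (−3.99, SE 0.359, adjusted p = 9.3e-12). Of all genes 22.6% passed. The visceral endoderm markers summed to 2930 to 4310 CPM at S5 and 171 to 175 CPM at S3, and 12 of 14 rose; their part in the levels of Eomes and Gsc was not tested.

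Against EPSCs of the second set, S5 aggregates had more Eomes (1.81, SE 0.172, adjusted p = 3.3e-11, edgeR), more Gsc (4.59, SE 0.629) and more Mixl1 (3.77, SE 0.436). They had less T (−3.70, SE 0.27, adjusted p = 3.2e-14), and 22.2% of all genes passed. Without S5 replicate 2 Gsc gave 3.94, and Mixl1, at 10 and 2 counts in the EPSCs, gave 5.36 without EPSC replicate 3 and 3.07 without replicate 4.

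Leaving Activin A, the Nodal receptor ligand, out of the peri-implantation medium lowered Gsc, Mixl1 and Eomes. Gsc went from 5.35 and 11.7 CPM to 0.528 and 0.232 CPM (−4.46, SE 0.569, adjusted p = 1.1e-06, edgeR; −3.81 without S5 replicate 2 and −5.19 without replicate 1 of the omission group). Mixl1 went from 3.38 and 5.52 CPM to 1.01 and 0.670 CPM (−2.40, SE 0.332, adjusted p = 5.1e-06), and Eomes from 67.9 and 89.1 CPM to 31.9 and 31.2 CPM (−1.31, SE 0.165, adjusted p = 8.1e-07). In each gene both libraries without Activin A lay below both with it, and 1.12% of all genes passed. Against the other 3 omissions in place of the full medium, Eomes gave −0.52, under the fold threshold, while Gsc and Mixl1 still passed. T was at 1.58 and 1.06 CPM, around the full medium (0.47, SE 0.297, adjusted p = 0.60). Evx1 was at 0.192 and 0.541 CPM against 0.906 and 0.935 CPM (−1.34, SE 0.505, adjusted p = 0.20; DESeq2 adjusted p = 0.027).

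The 7 anterior visceral endoderm markers all fell without Activin A, a list that contains Gsc. Cer1, a secreted Nodal and Wnt antagonist, fell from 27.5 ± 8.28 to 2.82 ± 0.422 CPM (SD, n = 2), Lhx1, a LIM homeobox gene, from 123 ± 32.9 to 22.1 ± 2.06 CPM and Otx2, an anterior homeobox gene, from 126 ± 10.6 to 43.4 ± 4.57 CPM. The list summed to 651 to 940 CPM with Activin A and 229 to 240 CPM without it. The broader visceral endoderm list summed to 2930 to 4310 and 3610 to 3780 CPM, with 3 of 14 fallen and 1 risen. Of the 7 anterior markers, 4 fell without XAV 939 and 3 without FGF4, and none rose in either. Of the 24 streak signals 5 fell and none rose, among them Fgf8, the streak FGF ligand, from 20.7 ± 9.43 to 2.62 ± 0.502 CPM and Lefty2 from 296 ± 51.6 to 43.8 ± 0.53 CPM.

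Leaving out XAV 939 raised T, to 3.47 and 2.76 CPM from 0.751 and 1.16 CPM (1.71, SE 0.273, adjusted p = 3.7e-05, edgeR), with both libraries above the full medium. Gsc was at 3.39 and 2.08 CPM and fell by 1.63 (SE 0.472, adjusted p = 0.022), and Mixl1 was at 1.53 and 2.43 CPM and fell by 1.17 (SE 0.303, adjusted p = 0.0095). Both falls were lost with single libraries. Without S5 replicate 2 they were −0.98 for Gsc (adjusted p = 0.43) and −0.80 for Mixl1 (adjusted p = 0.28), without replicate 1 of the omission group −2.04 (0.063) and −0.89 (0.23), and Gsc gave −1.33 (0.14) without replicate 2 of it. Eomes was at 41.0 and 43.7 CPM, below both full-medium libraries (−0.89, SE 0.163, adjusted p = 0.00023) and under the fold threshold. Evx1 was at 0.690 and 0.430 CPM (−0.69, SE 0.459). The omission passed for 2.14% of all genes. The visceral endoderm markers summed to 1130 to 1760 CPM without XAV 939, with 9 of 14 fallen, and their part was not tested.

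**Figure D4:**
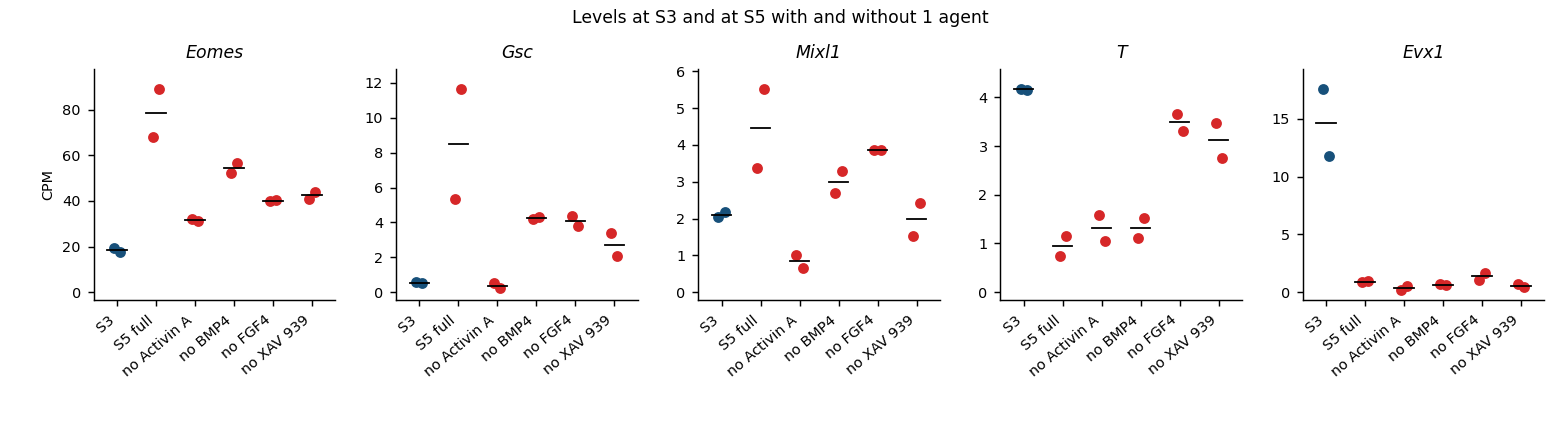
CPM of 5 genes at S3 and at S5 in full peri-implantation medium or with 1 agent left out; points are the 2 libraries of a group and bars their mean. Eomes and Gsc rise from S3 to S5 and are lowest among the S5 groups without Activin A, and T is higher without FGF4 and without XAV 939 than in full medium.

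Leaving out FGF4 raised T, to 3.67 and 3.31 CPM (1.86, SE 0.27, adjusted p = 2.3e-06, edgeR), clear of the full medium. Eomes was at 39.8 and 40.5 CPM, below the full medium by 0.97 on the log2 scale (SE 0.163, adjusted p = 3e-05), just under the fold threshold, and gave −1.16 without S5 replicate 1. Mixl1 was at 3.87 and 3.85 CPM, between the full-medium libraries, and Gsc at 4.37 and 3.77 CPM (−1.06, SE 0.461, adjusted p = 0.13). Gsc passed as a fall without a filter on low counts (edgeR adjusted p = 0.044), with halved counts (0.026) and within its own family of libraries (0.032). Against the mean of the other 3 omissions it gave 1.30 (0.015). That mean includes the group without Activin A, where Gsc was at 0.528 and 0.232 CPM, so this is not a rise over the full medium. Wnt3, the Wnt ligand of the early streak, rose from 3.43 ± 0.219 to 14.3 ± 0.971 CPM (SD, n = 2; 2.06). FGF4 passed for 4.65% of all genes, and the visceral endoderm markers summed to 1000 to 1050 CPM, with 10 of 14 fallen. The trophoblast markers summed to 289 CPM in both libraries without FGF4 and to 727 to 910 CPM with it, with 12 of 16 fallen. The part of either list in the level of Eomes was not tested.

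Leaving out BMP4 changed none of the 6 genes by edgeR, while 2 had an unadjusted p below 0.05 and DESeq2 called none; 0.0559% of all genes passed. Eomes was at 52.1 and 56.6 CPM (−0.53, SE 0.162, adjusted p = 0.17) and Gsc at 4.22 and 4.30 CPM (−0.996, SE 0.461, adjusted p = 0.52), both below both full-medium libraries. Against the mean of the other 3 omissions Gsc gave 1.39 (edgeR adjusted p = 0.049). That mean includes the group without Activin A, where Gsc was at 0.528 and 0.232 CPM, so this is not a rise over the full medium. T was at 1.12 and 1.51 CPM, with a 95% interval of −0.12 to 1.04.

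The pattern of the genes over groups is given as a description, since all groups share the fit and most share their stage. Over the means of the 10 S2 and S3 groups on the log2 CPM scale, Pearson's r was 0.954 for T and Mixl1, 0.969 for T and Evx1, 0.920 for Mixl1 and Evx1, 0.329 for T and Eomes and −0.766 for T and Gsc. Over the 5 S5 groups it was 0.969 for Mixl1 and Gsc, 0.836 for Eomes and Gsc and 0.0595 for T and Mixl1. For T and Evx1 the groups without CHIR-99021 and those without CD1530 lie at the 2 ends of the S2 and S3 range.

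Among 14772 genes with 1 CPM or more in at least 1 of the 20 groups of the second set, the 3 whose mean log2 CPM correlated best were named for each gene. For T these were Gad1 (r = 0.909), Btla (0.868) and Kremen2 (0.866). Gad1, a glutamate decarboxylase gene, was at 6.23 ± 0.222 CPM at S2, 0.212 ± 0.148 CPM without CHIR-99021 and 20.6 ± 0.846 CPM without CD1530 (SD, n = 2). For Mixl1 they were Slc20a2 (0.860), Lmo2 (0.855) and Evx1os (0.854), and for Evx1 they were Evx1os (0.942), Smpd3 (0.936) and Sptlc3 (0.926). For Eomes they were Abcc4 (0.897), Mtrex (0.894) and Rgs20 (0.880), and for Gsc they were Itpr3 (0.856), Apobec2 (0.854) and Arhgef19 (0.842). Mesp1 stayed below 1 CPM and was left out.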

How the data were processed

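The authors deposited raw read counts per gene in 1 table for all 52 libraries. The submitters' processing notes name Trimmomatic 0.39, STAR 2.7.10b, featureCounts 2.0.6 and the build mm10; no source used here gives the annotation, strand or pair options. Gene positions were taken from GENCODE M21, matched by symbol for 53292 of 55291 rows.

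The counts were fitted in edgeR 4.0.16 (R 4.3.3) in 1 quasi-likelihood model over all libraries, with 26 group means (EPSC replicates 1 and 2 apart from 3 and 4), filterByExpr and TMM factors, after the code was tested on simulated data. Fits that leave out a library or add a replicate block reused the trended dispersions of the full fit. CPM are on TMM library sizes, and for correlations log2 CPM had 2 added as prior count. The alternatives were DESeq2 1.42.0, RLE size factors, no filter, no minimum fold, halved counts where mates seem counted apart, each family of libraries alone, other reference groups and each library left out. Genes outside the 6 were named if called, at 10 CPM or more in a compared group, and among the 4 largest changes of their list. The members and lists were chosen with earlier results of these data known.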

Additional observations from a re-analysis of the deposited data

Results flagged for a closer look

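Mesp1 in the 4 EPSC libraries was 0, 0 and 0 CPM in replicates 1 to 3 and 0.107 CPM, from 2 counts, in replicate 4. The gap of that library to the others, divided by the range of the group, was 1.0; the limit is set so that chance passes it in about 1 in 20 groups of continuous values, but with 3 libraries at 0 any count in the other gives 1.0, and 2 counts lie under the floor of 3.

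The response to totipotency medium differed between mESCs and EPSCs in 3 of the 6 genes by the interaction contrast in edgeR. The difference, mESC minus EPSC on the log2 scale, was 1.52 for T, which fell in both, 2.29 for Eomes and 8.91 for Evx1, which had 2 counts in the untreated mESCs. Only 1 line of each kind was measured, so line and kind of cell cannot be told apart.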

How the results depend on the processing

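Of the 63 calls, 50 were kept under every alternative and 13 were lost under 1 or more; the calls lost with a single library are given beside the results. The calls numbered 12 in the 2-day EPSC comparisons, 12 in the mESC and long-term comparisons, 23 at S2 and S3 and 16 at S5, and with a replicate block they numbered 12, 12, 23 and 16 as well. The replicate numbers did not pair the libraries in most pairs of groups. The correlation of same-numbered deviations exceeded 0.1 in 1 of 15 pairs of groups in the first set and 1 of 190 in the second. The first-set pair reached 0.432, so its same-numbered libraries shared part of their deviation, and the cause was not tested. Leaving out 1 library gave 11 to 13, 12 to 13, 21 to 23 and 13 to 19 calls. DESeq2 gave 11, 12, 23 and 17, with no adjusted p for Mesp1 on adding CD1530, and halved counts gave 10, 12, 23 and 17, with Mesp1 no longer tested.

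Against the other 3 omissions of the same stage in place of the full medium, Gsc without XAV 939 reversed to 0.54 (adjusted p = 0.46), Mixl1 gave −0.11 there, and T without XAV 939, T without FGF4, T without Birabresib at S2 and Eomes without Activin A gave 0.78, 0.98, 0.75 and −0.52, all under the fold threshold. In that setting 8 more pairs passed: without 8Br-cAMP, Evx1 (1.46 at S2, 2.32 at S3) and Gsc (−2.08 at S2); without CHIR-99021, Gsc at S2 (1.39); without FGF4, Mixl1 (1.18), Evx1 (1.41) and Gsc (1.30, from −1.06); without BMP4, Gsc (1.39, from −0.996). Each value in this setting is a difference from the mean of the other 3 omissions, not from the full medium. For agents other than Activin A, the S5 mean includes the group without it, where Gsc averaged 0.38 CPM against 8.5 CPM in full medium. For agents other than CHIR-99021, the S2 and S3 means include the groups without it, where Evx1 averaged 0.30 and 0.21 CPM. With all 4 EPSC libraries pooled, Eomes passed in S1 (−1.69) and with CHIR-99021 (−1.30), and Evx1 and Gsc passed at P25 (−1.64 and 2.36).

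The number of genes called moved by over 1.5 times in these cases. For Elvitegravir it was 2, but 142 without a filter, 103 with a replicate block, 56 in DESeq2 and 0 with halved counts, with the own family of libraries or without both libraries 2 of CHIR-99021 and PD0325901, a setting added after the data were seen. For BMP4 it was 14, but 36 without a filter, 27 in DESeq2, 68 against other omissions and 0 with the own family. For P38 it was 85, but 138 with halved counts and 162 with the own family. CHIR-99021 against EPSCs gave 4673, and 7564 with EPSCs pooled. Against other omissions the numbers became 756 from 481 for 8Br-cAMP, 2093 from 746 for Birabresib and 1125 from 583 for CD1530 at S2, 2891 from 1556 for Birabresib at S3 and 697 from 1166 for FGF4. Mesp1 rests on 166 counts over all libraries.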
